A study of Mus musculus with 72 samples.

Results

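Follicle-stimulating hormone in its FSH24 form, given at 10 ng/ml for 24 hours to cultured mouse ovarian follicles, was compared with untreated follicles. The 3 libraries labelled with 10 ng/ml FSH24 carry the numbers 2, 3 and 4, and the 3 untreated libraries with the same numbers served as controls. These 6 of the 18 libraries of the series account for 24 of its 72 deposited lane samples, since each library was run on 4 lanes and the lanes are technical. The design text calls the follicles early secondary and states biological triplicates. All groups shared 1 culture medium with serum albumin, fetuin and insulin-transferrin-selenium. Insulin was therefore present in treated and untreated follicles alike. The labels name no strain, genotype, age or animals, and do not say which libraries share animals or follicle pools. The p-values below therefore measure the spread between libraries, estimated within groups over all 18 libraries of the series.

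FSH acts on the granulosa cells that surround the oocyte. Its receptor couples to the stimulatory G protein, adenylyl cyclase and protein kinase A, which raises phosphorylation of CREB, and it also feeds into the phosphatidylinositol 3-kinase (PI3K), AKT and FOXO1 route. FSH24 is the fully glycosylated form of the hormone, whereas FSH21, also used in the series, lacks a glycan on its beta subunit. Secondary follicles already carry FSH receptors but have not formed an antrum, and their granulosa cells feed the oocyte through gap junctions on transzonal projections and through KIT ligand.

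The 6 libraries held assigned fragments totalling 20.4 to 22.3 M, and levels are given as CPM, counts relative to the scaled total of each library. The 45S-derived transcript Rn18s-rs5 took 0.609 to 2.02% of counts, with the highest share in untreated number 4, and mitochondrial genes took 1.65 to 2.26%. Granulosa markers summed to 9200 to 11000 CPM in the untreated and 9950 to 11200 CPM in the treated libraries. Markers of theca and steroidogenic cells summed to 1520 to 1990 and 1730 to 2460 CPM. Of their defining theca genes, Cyp17a1 had at most 1.12 CPM in the controls and 5.74 CPM with FSH24, and Insl3 at most 1.01 and 0.545 CPM. Stromal and smooth muscle markers summed to 3310 to 5380 and 3310 to 4760 CPM. Col1a1 alone had 1270 to 2020 and 1290 to 1900 CPM, and Dcn 6.64 to 12.9 and 7.03 to 10.5 CPM. Endothelial markers (74.7 to 108 and 79.9 to 89.3 CPM) and immune markers (1.6 to 4.39 and 2.3 to 4 CPM) were low in both groups. The pan-leukocyte gene Ptprc had at most 0.099 CPM in any of the 6 libraries. In whole follicles fewer cells of a type and less RNA per cell cannot be told apart, which holds for every gene below.

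Of 18727 genes tested, 959 were higher (5.12%) and 618 lower (3.3%) with 10 ng/ml FSH24 at an adjusted p under 0.05, by edgeR's quasi-likelihood test with Benjamini-Hochberg adjustment over all genes. The same test and adjustment apply to every adjusted p below, and changes are log2 fold changes with their standard error (SE), n = 3 libraries a side. The change was at least 2-fold for 160 of the rises and 85 of the falls. Over all genes tested, called or not, the 3 treated libraries lay above all 3 controls for 2581 genes and below them for 2011. Called genes were named mainly by a rule that asked for no overlap between the groups. Its absence in a named gene describes the values and adds no support to the call. Without untreated number 4 there were 982 calls, without treated number 4 there were 995, and without treated number 2 there were 1029. Calls depended on the level: 1.09% of genes averaging under 1 CPM were called and 18.8% of those over 100 CPM. Of 903 processed pseudogenes tested, 5 were higher and 33 lower, 4.21% called in either direction. Of all genes tested 5.12% were higher and 3.3% lower.

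**Figure D1:**
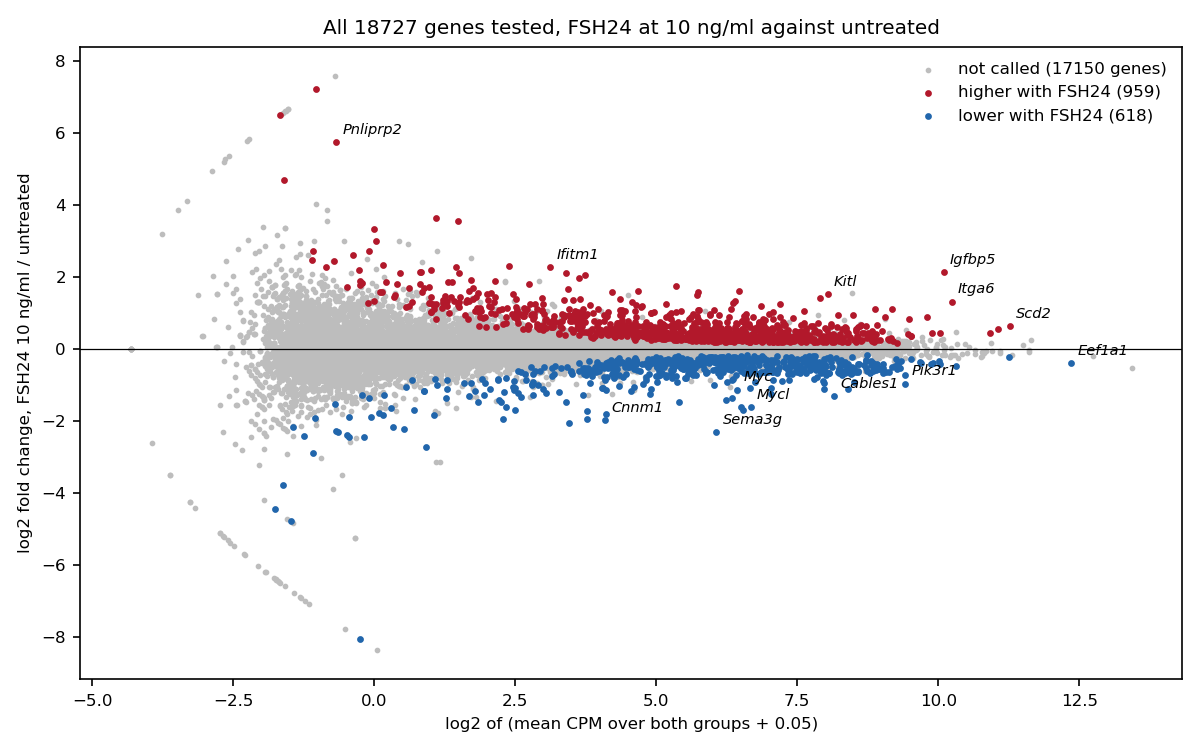
Log2 fold change with 10 ng/ml FSH24 against untreated follicles (vertical axis) and log2 of the mean CPM over both groups plus 0.05 (horizontal axis) for the 18727 genes tested, with 959 higher genes in red and 618 lower genes in blue. The median size of the change was 0.41 for called genes over 100 CPM and 2.43 for those under 1 CPM. Among labelled genes of high level, Eef1a1 and Scd2 had small changes and Igfbp5 (2.13) and Itga6 (1.31) larger ones. All changes beyond 4 on either side belong to genes with a mean under 1 CPM.

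Of 29 genes of the receptor and its cAMP transducers, 4 were higher (13.8%, against 5.12% of all genes tested) and 2 lower (6.9%, against 3.3%). Rgs2 encodes a regulator that shortens G-protein signals. It measured 695, 615 and 732 CPM in untreated numbers 2, 3 and 4 and 437, 461 and 414 CPM with FSH24. All 3 treated libraries lay below all 3 controls (−0.64, SE 0.08, adjusted p = 8.93e-05). The receptor itself, Fshr, measured 21.4, 24.6 and 28.8 CPM against 17.4, 23.6 and 20.4 CPM. These groups overlapped (−0.29, SE 0.26, adjusted p = 0.614). The median change of the list was −0.09, against 0 over all genes tested, and 23 members did not pass. The other lower gene, Prkar2a, and the higher genes Crtc1, Gnai2, Grk2 and Prkar1a all changed by less than 0.32 in size. There was 1 higher call without treated number 2 or untreated number 3 and none without treated number 4 or untreated number 2 or 4. The call of Prkar2a was lost without untreated number 2 or treated number 3.

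Among 14 phosphodiesterases that break down cyclic nucleotides, 2 were higher (14.3%, against 5.12% of all genes tested) and none lower (median 0.01). There was 1 higher without treated number 3 or untreated number 3 or 4. Pde1a, a calcium-dependent form, rose from 20.3, 24.3 and 22.8 CPM to 32.8, 38.5 and 33.9 CPM (0.64, SE 0.14, adjusted p = 0.00511), with no overlap. Pde4b, a known cAMP-induced member, did not pass (0.92, adjusted p = 0.0505), and passed with all 6 untreated libraries as controls, with DESeq2 and without treated number 4. Of 22 cAMP early-response genes 3 were higher (13.6%, against 5.12% of all genes tested): Fosl2, Btg2 and Jund (median −0.01). Fosl2, a FOS-family factor, rose from 201, 221 and 206 CPM to 289, 332 and 391 CPM (0.69, SE 0.11, adjusted p = 0.000422). The immediate-early gene Egr1 (−0.75, adjusted p = 0.126) did not pass, and passed in a fit of only the 6 libraries compared (adjusted p = 0.00117). Without treated number 2 or untreated number 4 there was 1 early-response call.

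Granulosa transcription factors held more rises than falls, as did all genes tested. Of 24 members 6 were higher (25%, against 5.12% of all genes tested) and 1 lower (4.17%, against 3.3%), with a median of 0.02. Of 18 granulosa identity genes, a separate list, 4 were higher (22.2%) and 3 lower (16.7%), with a median of 0.03. There were 2 higher identity genes without untreated number 3. Gata4, a zinc-finger activator of granulosa genes, rose from 365, 330 and 359 CPM to 457, 451 and 512 CPM (0.43, SE 0.07, adjusted p = 0.000359). Its paralog Gata6 rose by 0.46 (SE 0.08, adjusted p = 0.00114). Runx1, a factor of fetal granulosa identity, rose from 40.8, 34.2 and 39.8 CPM to 69.1, 57.2 and 79.5 CPM (0.84, SE 0.12, adjusted p = 0.000246). The forkhead factor Foxl2, which maintains granulosa fate, and the factors Nr5a1 and Emx2 also rose. These 3 calls were lost without untreated number 3, those of Nr5a1 and Emx2 also without treated number 2, and that of Nr5a1 without treated number 3. Esr2, the estrogen receptor of granulosa cells, moved the other way. It fell from 174, 196 and 210 CPM to 126, 133 and 144 CPM (−0.53, SE 0.07, adjusted p = 0.000131), and the groups did not overlap.

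Kitl, which encodes the KIT ligand through which granulosa cells support oocyte growth (ENSMUSG00000019966, GRCm38 chr10:100015630-100100416, plus strand), had the smallest adjusted p of all genes tested. It measured 121, 144 and 141 CPM in the controls and 369, 375 and 427 CPM with FSH24. The groups were far apart (1.53, SE 0.08, adjusted p = 3.01e-09). Its receptor Kit, made by the oocyte, did not pass (−0.05, adjusted p = 0.796). Of 24 genes for Kit ligand, oocyte growth factors and their receptors, 3 were higher (12.5%) and 1 lower (4.17%), with a median of −0.07. The shares of all genes tested were 5.12% and 3.3%. There was 1 higher without untreated number 2 or treated number 3. The BMP receptor Bmpr1b, on the route of the oocyte factors, was the lower one (−0.29, SE 0.07, adjusted p = 0.014), a call lost without treated number 3 or 4. There were 2 lower members without untreated number 2 or 3.

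In the inhibin and TGF-beta system a transducer and a latent-complex protein rose. Smad3, a transducer of activin and TGF-beta, rose from 346, 314 and 334 CPM to 486, 503 and 553 CPM (0.63, SE 0.07, adjusted p = 8.47e-06). Ltbp1, which holds latent TGF-beta in the matrix, rose from 168, 131 and 148 CPM to 252, 248 and 241 CPM (0.73, SE 0.15, adjusted p = 0.00641). Of 35 members of the inhibin, activin, AMH and TGF-beta list 3 were higher (8.57%) and 2 lower (5.71%), with a median of 0.02. These shares are near the 5.12% and 3.3% of all genes tested. The inhibin subunit Inhbb (adjusted p = 0.0921), Inha (adjusted p = 0.853) and Amh (adjusted p = 0.797) were not called, although Inhbb passed with all 6 untreated libraries as controls and with DESeq2. The 2 lower genes were the activin antagonist Fst and the BMP antagonist Chrd. The call of Fst was lost without treated or untreated number 2 or 4, and that of Chrd without treated number 2, 3 or 4 or untreated number 3.

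**Figure D2:**
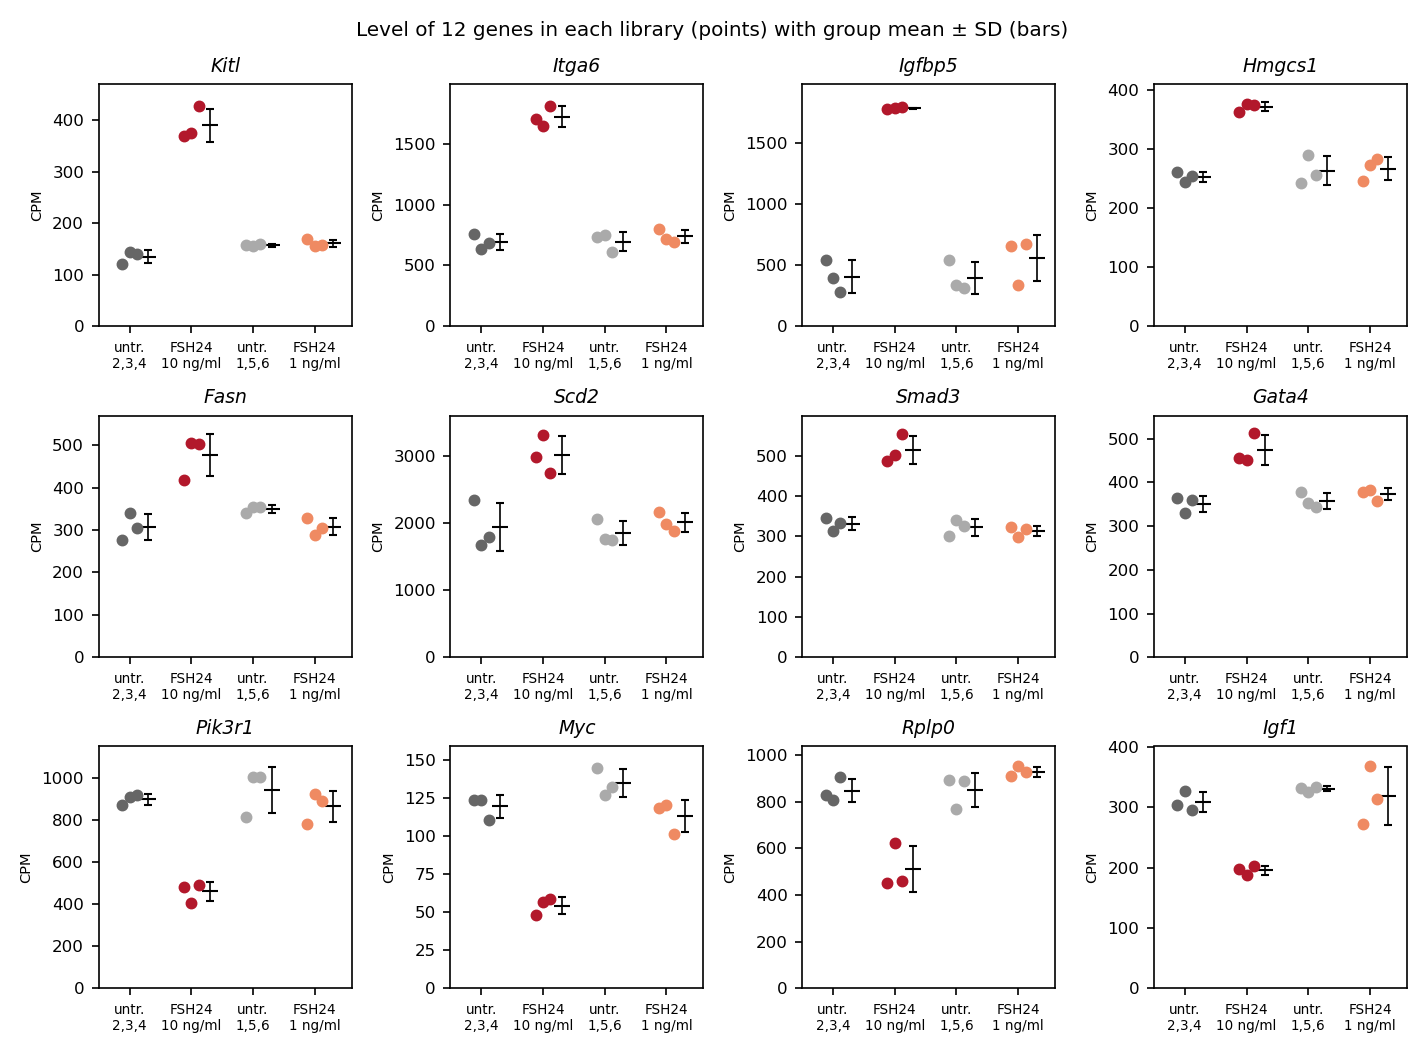
CPM (vertical axes, from 0) of 12 genes in each library, as points, for untreated numbers 2, 3 and 4, FSH24 at 10 ng/ml, untreated numbers 1, 5 and 6 and FSH24 at 1 ng/ml, with the mean and SD of 3 libraries beside them. The 12 genes are called genes without overlap at 10 ng/ml, so the gap between these 3 libraries and their 3 controls follows from the choice. The 1 ng/ml libraries mostly lie near the untreated ones. For Igfbp5 they measured 660, 339 and 673 CPM, against 546, 336 and 311 CPM in untreated numbers 1, 5 and 6.

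Cholesterol synthesis rose along nearly the whole route with 10 ng/ml FSH24. Cells make cholesterol from acetyl-CoA through mevalonate, squalene and lanosterol, and the genes are known as targets of the factor SREBP-2, encoded by Srebf2. Of 21 enzymes tested, 16 were higher and none lower, which is 76.2% against 5.12% of all genes tested. Their median change was 0.55. Leaving out any 1 of the 6 libraries gave 12 to 17 higher members.

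Hmgcs1, the synthase of HMG-CoA at the start of the route, measured 260, 244 and 254 CPM and 363, 377 and 375 CPM (0.56, SE 0.07, adjusted p = 0.000101). The level was higher in every treated library than in any control. Further down, squalene epoxidase Sqle rose by 0.62 (SE 0.09), lanosterol synthase Lss by 0.75 (SE 0.08) and the methyl-sterol oxidase Msmo1 by 0.82 (SE 0.12). Dhcr7, an enzyme of the last steps, rose by 0.74 (SE 0.10). The members that did not pass were Mvd, Ebp, Pmvk, Acat2 and Ggps1, of which the first 4 had changes of 0.37 to 0.42 and Ggps1, a branch enzyme for protein prenylation, 0.02. The library totals of this list were 1510, 1360 and 1370 CPM in the controls and 1920, 2240 and 2040 CPM in the treated libraries. Treated number 3 had the highest total and also the highest level of Lss.

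Of 21 genes of sterol uptake, transport and control 7 were higher (33.3%, against 5.12% of all genes tested), none was lower and 14 did not pass (median 0.16). Scarb1, the HDL receptor, rose by 0.50 (SE 0.10, adjusted p = 0.00375) and Stard4, a carrier of cholesterol inside the cell, by 0.43 (SE 0.09, adjusted p = 0.00518). The regulator Srebf2 rose from 199, 174 and 182 CPM to 238, 261 and 276 CPM (0.48, SE 0.07, adjusted p = 0.000169), and its relative Srebf1 rose by 0.45 (SE 0.08, adjusted p = 0.0013). Among the higher genes, Insig2 lost its call without any 1 library other than treated number 4, and the lipase gene Lipe without any 1 library other than treated number 3.

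Fatty acid genes followed. Of 15 members 9 were higher (60%, against 5.12% of all genes tested) and none lower (median 0.40). Fasn, fatty acid synthase, measured 277, 340 and 304 CPM and then 419, 505 and 504 CPM (0.63, SE 0.08, adjusted p = 0.000103). The elongase Elovl6 had the largest change, from 38.0, 46.7 and 40.7 CPM to 70.0, 105 and 89.3 CPM (1.07, SE 0.13, adjusted p = 6.61e-05). Fads2, a desaturase of polyunsaturated fatty acids, rose by 0.81 (SE 0.10, adjusted p = 9.68e-05). Scd2, a stearoyl-CoA desaturase, measured 2351, 1668 and 1799 CPM and then 2979, 3312 and 2752 CPM (0.64, SE 0.13, adjusted p = 0.00326). Treated and untreated levels did not overlap for any of these 4 genes, as the naming rule asked. Thrsp, a lipogenic nuclear protein of low level, rose from 0.562, 0.779 and 0.543 CPM to 3.90, 2.63 and 1.88 CPM (2.15, SE 0.47, adjusted p = 0.0066).

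**Figure D3:**
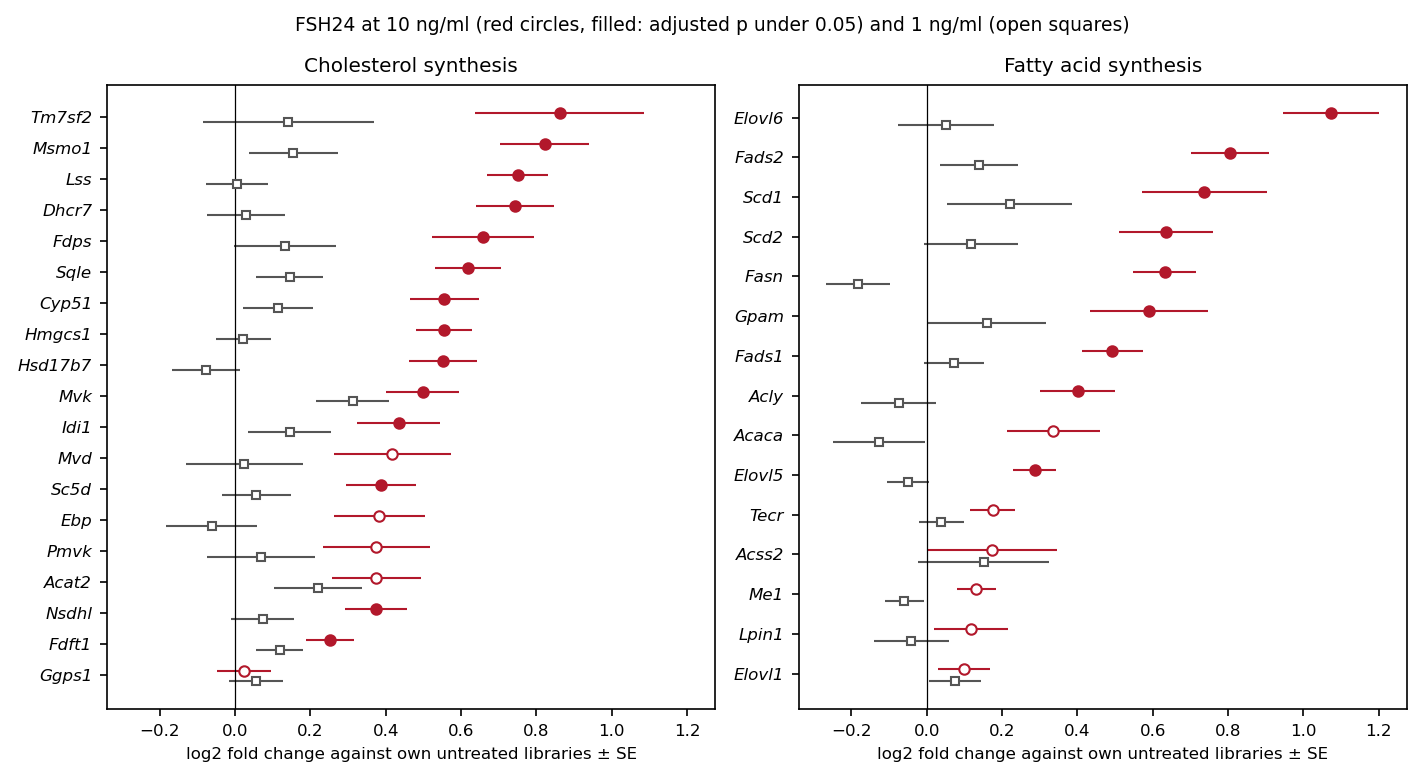
Log2 fold change with its SE (horizontal axes) of 19 cholesterol and 15 fatty acid synthesis genes with 10 ng/ml FSH24 (red circles, filled where the adjusted p is under 0.05) and with 1 ng/ml FSH24 (open squares), each dose against its own untreated libraries. All circles other than that of Ggps1 lie right of their squares, and 14 and 9 circles are filled.

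Promoter windows were searched for 8 short motifs known for the factors of these routes. The windows are RefSeq's (GRCm38.p6), from 250 bases before to 50 bases after a start, and 12608 of the 18727 tested genes had at least 1. Both strands were searched. The sterol regulatory element TCACNCCAC is bound by SREBP factors, the cAMP response element TGACGTCA by CREB, TGTTTAC by forkhead factors and TGATGNAAT by ATF4. They stood in 1.24%, 1.79%, 3.65% and 0.965% of all 32851 windows. CCAAT, bound by NF-Y, stood in 37.4%. The shorter cAMP element TGACG, which the full one contains, stood in 20.8%, the NR5A element CAAGGTCA in 1.56% and the AP-1 element TGANTCA in 7.81%. A match is given as a description of the letters only. The following stretches of 60 bases show a match in members described here, with the motif, on either strand, in capitals:
Hmgcs1 (sterol element; chr13:119690191-119690250, plus): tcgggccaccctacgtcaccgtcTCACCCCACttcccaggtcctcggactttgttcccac
Elovl6 (forkhead element; chr3:129532236-129532295, plus): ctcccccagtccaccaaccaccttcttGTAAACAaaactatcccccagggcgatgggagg
Txnip (forkhead element; chr3:96557807-96557866, plus): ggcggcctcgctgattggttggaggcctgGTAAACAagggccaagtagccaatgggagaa
Aars (ATF4 element; chr8:111033702-111033761, plus): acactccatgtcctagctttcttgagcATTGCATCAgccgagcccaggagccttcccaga
Btg2 (cAMP element; chr1:134079286-134079345, minus): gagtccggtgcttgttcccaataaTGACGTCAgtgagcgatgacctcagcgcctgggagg
Rpl18 (cAMP element; chr7:45717966-45718025, plus): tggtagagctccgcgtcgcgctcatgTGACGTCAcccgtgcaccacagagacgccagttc
Rpl27a (cAMP element; chr7:109519070-109519129, plus): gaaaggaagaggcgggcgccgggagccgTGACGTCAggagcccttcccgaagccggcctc

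The shares of these motifs were given no test. Of genes with a window, the sterol element stood in 1.52% of the higher, 0.449% of the lower and 1.45% of all tested genes. The cAMP element stood in 2.9%, 3.6% and 3.24%, and the forkhead element in 2.9%, 3.6% and 3.05%. In the lists, 1 of 16 cholesterol genes held the sterol element (Hmgcs1, whose motif begins 137 bases before the start) and 4 of 22 PI3K, insulin and FOXO genes the forkhead element. The cAMP element stood in 6 of 63 ribosomal protein genes and 2 of 16 cAMP early-response genes. Some lists of other functions had larger shares. The forkhead element stood in 3 of 8 p53 target genes and 3 of 11 phosphodiesterases. The sterol element stood in 2 of 6 mu-class glutathione transferases, and the cAMP element in 3 of 13 genes of the FLRT and latrophilin list. CCAAT stood in 15 of the 16 cholesterol genes with a window (93.8%), but also in 12 of 13 genes of the unfolded protein response (92.3%), of which 1 of 16 tested was called, and in 13 of 16 circadian clock genes (81.2%). It stood in 51.3% of the higher, 37.8% of the lower and 42.9% of all tested genes. No match in a window says only that the letters are not there.

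Of 18 steroid synthesis genes 3 were higher (16.7%, against 5.12% of all genes tested) and none lower (median 0.14), and 1 was higher without treated or untreated number 3. Cyp17a1, which theca cells use to make androgens, rose from 1.12, 1.01 and 0.995 CPM to 4.23, 5.74 and 3.67 CPM (2.12, SE 0.46, adjusted p = 0.00702). Hsd3b1 was abundant in both groups, at 952 to 1222 and 1160 to 1758 CPM, and did not pass (0.47, adjusted p = 0.144). Aromatase, Cyp19a1, measured 10.6, 5.59 and 11.4 CPM and then 17.9, 21.4 and 11.8 CPM, and its change did not pass (0.89, adjusted p = 0.17). The other higher genes were Star, which brings cholesterol into mitochondria, and the factor Nr5a1, and both lost their call without untreated or treated number 3. Akr1c18, which inactivates progesterone, rose from 0.140, 0.183 and 0.181 CPM to 2.71, 0.990 and 1.50 CPM (3.32, SE 0.55, adjusted p = 0.000787). The total of theca and steroidogenic cell markers, 1520 to 1990 CPM in the controls and 1730 to 2460 CPM in the treated libraries, overlapped between groups. The part of theca cells in these changes was not tested.

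The transcripts of the translation apparatus fell as a group. Ribosomes are built from about equal numbers of each ribosomal protein, whose mRNAs are known to be made and translated together under growth control. Of 84 ribosomal protein genes tested 72 were lower and none higher, which is 85.7% against 3.3% of all genes tested (median −0.57). Leaving out any 1 library gave 55 to 72 lower members. Their summed level was 27500, 24600 and 27700 CPM in the controls and 16800, 20300 and 17000 CPM with FSH24. All treated totals lay below all control totals, and treated number 3 was the nearest to the controls.

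Rplp0, of the ribosomal stalk (chr5:115559467-115563727, plus strand), measured 829, 809 and 906 CPM and then 450, 624 and 462 CPM (−0.73, SE 0.11, adjusted p = 0.000504). Rps27a, which encodes a ribosomal protein fused to ubiquitin, had the largest fall of the list (−0.79, adjusted p = 0.000482). Rps20 measured 203, 190 and 202 CPM and then 114, 141 and 114 CPM (−0.69, SE 0.08, adjusted p = 2.41e-05). The 12 members not called include 5 paralogs that are not the main copy, Rpl10l, Rpl22l1, Rpl39l, Rpl7l1 and Rps27l, with changes of −0.21 to 0.11. Ribosomal protein genes share sequence with many processed pseudogenes, and the estimated counts can split fragments between them. Which of the 33 lower processed pseudogenes share such sequence was not tested, and they are uncertain as separate results.

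Elongation and initiation factors fell as well. Of 22 translation factors 12 were lower (54.5%, against 3.3% of all genes tested) and none higher (median −0.26). Eef1a1, the elongation factor that brings tRNA to the ribosome, had the largest fall in CPM, from 6292, 5662 and 6012 CPM to 4235, 4837 and 4477 CPM (−0.41, SE 0.08, adjusted p = 0.00275). Eef1b2, its exchange factor, fell by 0.68 on the log2 scale (SE 0.12, adjusted p = 0.00168). Eif4b, a helper of the initiation helicase, fell from 671, 624 and 701 CPM to 537, 545 and 557 CPM (adjusted p = 0.00322). The poly(A)-binding protein gene Pabpc1 (−0.40, SE 0.07) and Tpt1 (−0.42, SE 0.09), whose mRNA is known to follow ribosomal protein mRNAs, were lower too. Of 20 ribosome biogenesis genes 9 were lower (45%, against 3.3% of all genes tested) and none higher (median −0.25), and 4 without treated number 2. Npm1, a nucleolar chaperone, was the largest of them (−0.54, SE 0.09, adjusted p = 0.000526), and Polr1a, the large subunit of RNA polymerase I, fell from 329, 405 and 421 CPM to 277, 274 and 314 CPM (−0.42, SE 0.09, adjusted p = 0.00753).

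None of 24 respiratory chain genes passed (median −0.03), nor did any of 13 genes of the mitochondrial genome (median −0.10). Of 21 glycolysis genes 2 were higher (9.52%, against 5.12% of all genes tested) and none lower (median 0.26). Only 1 was higher without treated number 2 or 4 or untreated number 2 or 3. Their summed level overlapped between groups, at 6500, 3990 and 5250 CPM in the controls and 6560, 7880 and 4070 CPM in the treated libraries. The genes Rplp0, Rps20 and Eef1a1 kept their direction and call under both other scalings tried. The share of Rn18s-rs5, 0.609 to 2.02% in the controls and 0.646 to 1.28% in the treated libraries, overlapped between groups. Its part in the fall of ribosomal protein genes was not tested.

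**Figure D4:**
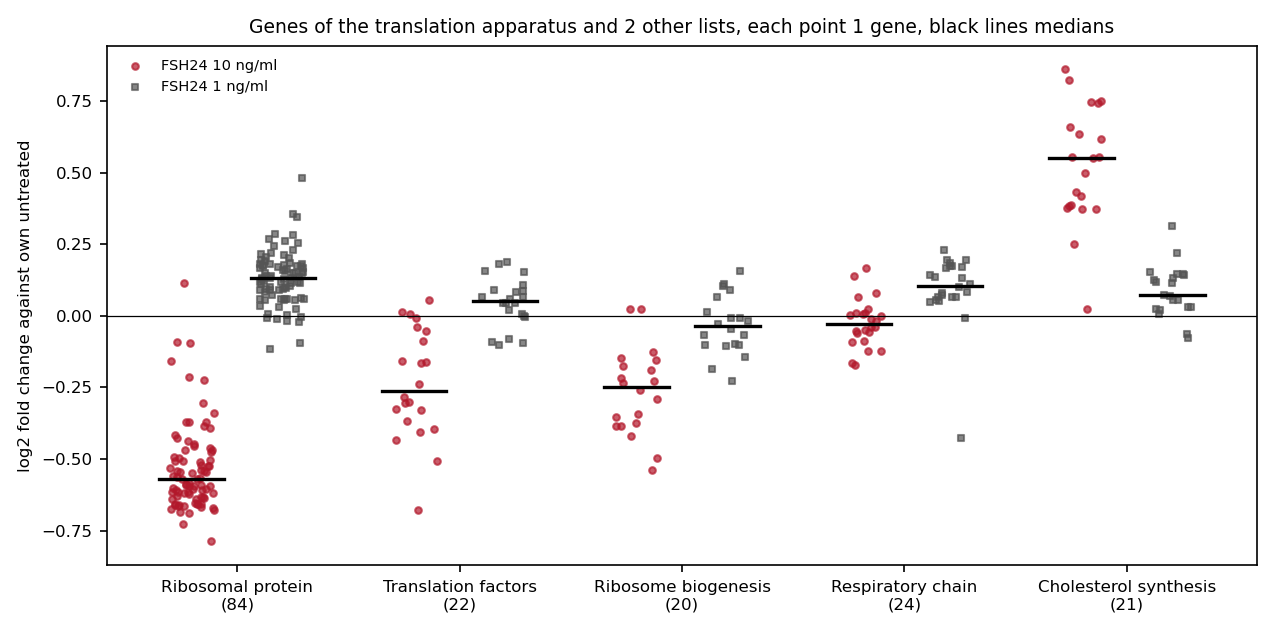
Log2 fold change (vertical axis) of each member of 5 gene lists, 1 point per gene, with 10 ng/ml FSH24 (red circles) and 1 ng/ml FSH24 (grey squares), each against its own untreated libraries; black lines are medians. At 10 ng/ml the ribosomal protein median is −0.57 and the cholesterol synthesis median 0.55, and at 1 ng/ml they are 0.13 and 0.07.

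MYC genes, which drive ribosome and growth genes in many cells, were lower. Myc (chr15:61985391-61990374, plus strand) measured 123, 124 and 111 CPM in the controls and 47.9, 56.4 and 58.4 CPM with FSH24 (−1.14, SE 0.09, adjusted p = 5.6e-07). Mycl, a paralog, fell from 155, 137 and 170 CPM to 44.0, 57.2 and 48.4 CPM (−1.63, SE 0.16, adjusted p = 1.92e-05). The highest treated level was less than the lowest control level for both. Of 12 genes of the MYC network these 2 were lower (16.7%, against 3.3% of all genes tested) and 1 higher (8.33%, against 5.12%). The higher one was the MYC antagonist Mxd3, whose call was lost without treated number 2 or untreated number 3 or 4.

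The PI3K, insulin and FOXO list held more falls than rises. FOXO factors are known to turn on Irs2, Klf15, Pik3ip1 and Txnip, and AKT keeps FOXO out of the nucleus. Of 27 members 6 were lower (22.2%, against 3.3% of all genes tested) and 3 higher (11.1%, against 5.12%), with a median of −0.12. Pik3r1, the main regulatory subunit of PI3K (chr13:101680563-101768217, minus strand), measured 869, 908 and 919 CPM and then 482, 408 and 492 CPM (−0.96, SE 0.09, adjusted p = 5.5e-06). Pik3r3, another regulatory subunit of the same kinase, rose from 56.5, 60.1 and 53.3 CPM to 93.2, 85.6 and 108 CPM (0.75, SE 0.10, adjusted p = 6.81e-05). The 2 subunits thus moved in opposite directions, each without overlap.

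Pik3ip1, an inhibitor of PI3K, fell from 51.6, 58.9 and 63.9 CPM to 36.8, 37.7 and 33.1 CPM (−0.70, SE 0.10, adjusted p = 0.00023). Irs2, an adaptor of the insulin receptor, fell by 0.73 on the log2 scale (SE 0.14, adjusted p = 0.00205), and Klf15, a low-level metabolic factor, by 1.18 (SE 0.26, adjusted p = 0.0066). Txnip, an inhibitor of glucose uptake, fell from 479, 427 and 416 CPM to 365, 318 and 303 CPM (−0.42, SE 0.08, adjusted p = 0.00272). Its arrestin-domain relative Arrdc3 fell further, from 156, 137 and 135 CPM to 51.0, 38.0 and 42.5 CPM (−1.70, SE 0.15, adjusted p = 5.5e-06). Sesn3, a known FOXO target too, went the other way and rose by 0.66 (SE 0.11, adjusted p = 0.000728). Foxo3 (0.04) and Insr (−0.12) did not pass, and Foxo1 passed narrowly (−0.41, SE 0.12, adjusted p = 0.0465), a call lost without treated number 2 or 3 or any 1 untreated library (adjusted p up to 0.177).

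The insulin-like growth factor genes changed at the binding protein and the ligand. Igfbp5, a secreted IGF-binding protein (chr1:72857932-72874884, minus strand), had the largest rise in CPM. It measured 547, 395 and 281 CPM in the controls and 1781, 1786 and 1794 CPM with FSH24 (2.13, SE 0.37, adjusted p = 0.00303). Control number 2 was the highest and number 4 the lowest, while the 3 treated libraries lay close together and above every control. Igf1, the granulosa growth factor, fell from 304, 327 and 296 CPM to 198, 188 and 202 CPM (−0.66, SE 0.09, adjusted p = 9.34e-05). The receptor Igf1r did not pass (−0.14, adjusted p = 0.259). Of 17 members 3 were higher (17.6%, against 5.12% of all genes tested) and 1 lower (5.88%, against 3.3%), with a median of −0.14. Without untreated number 2 or treated number 3 there were 2 lower. The other 2 higher genes were Pappa, a protease of IGF-binding proteins, and the clearance receptor Igf2r. Both lost their call without any 1 of the 6 libraries other than untreated number 3, whereas Igfbp5 kept it in all 6 of these fits.

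Of 31 replication and mitosis genes 9 were higher (29%, against 5.12% of all genes tested) and 2 lower (6.45%, against 3.3%). The other 20 did not pass, and the median was 0.22. Mki67, a protein of dividing cells, measured 344, 414 and 367 CPM and then 666, 502 and 602 CPM (0.65, SE 0.13, adjusted p = 0.00281). Top2a, a topoisomerase needed to part chromosomes, measured 247, 228 and 227 CPM and then 417, 300 and 352 CPM (0.61, SE 0.12, adjusted p = 0.0031). For both genes treated number 2 was the highest and number 3 the lowest of the treated libraries, and no treated library overlapped the controls. The summed level of the list was 3790, 3490 and 3480 CPM in the controls and 4760, 3790 and 4180 CPM with FSH24, where treated number 3 matched untreated number 2. Without treated number 3 there were 14 higher members, and without treated number 2, untreated number 3 and untreated number 4 there were 4, 5 and 3. The lower genes were 2 subunits of the replicative helicase, of which Mcm6 fell from 185, 188 and 192 CPM to 132, 149 and 155 CPM (−0.38, SE 0.08, adjusted p = 0.00463) and Mcm5 only just passed and lost its call without any 1 library. The cyclin of granulosa proliferation, Ccnd2, did not pass (−0.25, adjusted p = 0.185), and passed with all 6 untreated libraries as controls. Bcl2, which blocks cell death, rose from 17.6, 24.3 and 21.5 CPM to 33.98, 35.5 and 36.8 CPM (0.75, SE 0.12, adjusted p = 0.000482). None of 12 p53 target genes passed, and 1 was higher without untreated number 3.

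Lists of contacts between cells and with the matrix held called members, both ways in all but the collagen, laminin and matrix list. Of all genes tested 5.12% were higher and 3.3% lower. Itga6, the laminin-binding integrin subunit (chr2:71745616-71858416, plus strand), rose from 758, 632 and 686 CPM to 1702, 1646 and 1814 CPM (1.31, SE 0.11, adjusted p = 5.6e-07). Of 24 integrin and focal adhesion genes 2 were higher (8.33%) and 1 lower (4.17%), near the shares of all genes (median −0.01). None was lower without treated number 2 or untreated number 3, and 3 were lower without untreated number 2. Of 29 collagen, laminin and matrix genes 5 were higher (17.2%) and none lower (median 0.03). Col8a1, a short-chain collagen, rose from 48.7, 41.4 and 41.7 CPM to 111, 141 and 149 CPM (1.61, SE 0.17, adjusted p = 5.24e-05). Thbs1, a matrix glycoprotein, rose from 1837, 1743 and 1664 CPM to 2588, 2374 and 2650 CPM (0.54, SE 0.08, adjusted p = 0.000156). The laminin chain Lama3 rose by 1.11 (SE 0.24, adjusted p = 0.00609). Among 22 cadherins, desmosome genes and nectins 5 were higher (22.7%) and 2 lower (9.09%), with a median of 0.07. There were 3 higher without treated number 2 or untreated number 3 or 4, and 1 lower without untreated number 2 or 4 or treated number 3 or 4. Gap and tight junction genes numbered 20, of which 3 were higher (15%) and 1 lower (median 0.05), with 1 higher without untreated number 2 or treated number 4. The connexins Gja1 (adjusted p = 0.806) and Gja4 (adjusted p = 0.434) did not pass. Dsc2, a desmosomal cadherin, rose from 13.6, 10.04 and 10.2 CPM to 31.8, 26.6 and 30.1 CPM (1.39, SE 0.14, adjusted p = 7.25e-06).

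Among 26 myosins and genes of filopodia and transzonal projections, 4 were higher (15.4%) and 2 lower (7.69%), with a median of 0.06. The shares of all genes tested were 5.12% and 3.3%. Myo7a, a motor found in stereocilia and other actin protrusions, rose from 4.02, 3.94 and 3.89 CPM to 17.8, 14.5 and 18.9 CPM (2.11, SE 0.19, adjusted p = 1.66e-06). Fgd5, an exchange factor for Cdc42, fell from 6.32, 9.76 and 6.83 CPM to 1.14, 2.23 and 2.49 CPM (−1.96, SE 0.36, adjusted p = 0.00189). There were 2 higher members without treated number 2 or 4 or untreated number 2 or 4, and 1 without untreated number 3. Without treated number 2, 1 member was lower.

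Semaphorins and plexins, guidance signals between cells, held changes both ways. Of 29 tested 5 were higher (17.2%, against 5.12% of all genes tested) and 3 lower (10.3%, against 3.3%), with a median of 0.14. There were 3 higher without treated number 2 or 4 or untreated number 4, and 2 without untreated number 3. Sema3g, a secreted class 3 semaphorin, fell from 125, 95.8 and 114 CPM to 21.9, 27.4 and 18.01 CPM (−2.31, SE 0.19, adjusted p = 5.66e-06). Plxnb1, a semaphorin receptor, rose by 0.49 (SE 0.10, adjusted p = 0.00307). Flrt1, an adhesion protein that binds latrophilins, rose from 6.97, 3.85 and 4.79 CPM to 25.6, 19.1 and 19.6 CPM (2.04, SE 0.34, adjusted p = 0.00155).

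Wnt genes rose in 6 of 30 members (20%, against 5.12% of all genes tested), with none lower (median 0.04). Wnt4, a ligand needed in granulosa cells, measured 87.3, 68.7 and 101 CPM and then 150, 196 and 161 CPM (0.98, SE 0.17, adjusted p = 0.00196). The receptor Fzd4 rose from 8.84, 10.8 and 8.14 CPM to 15.6, 20.9 and 17.9 CPM (0.97, SE 0.13, adjusted p = 0.000118). Lgr4, which binds R-spondins, rose by 0.31 (SE 0.06, adjusted p = 0.00376). Nuak2, a kinase gene on the list of YAP targets, rose from 0.936, 1.24 and 1.81 CPM to 3.66, 2.77 and 3.29 CPM (1.28, SE 0.29, adjusted p = 0.00802). None of 14 hedgehog genes passed.

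Detoxification genes rose in a family of neighbours. The mu-class glutathione transferases attach glutathione to reactive molecules and lie together on chromosome 3. Of 6 tested, 4 were higher (66.7%, against 5.12% of all genes tested), in every fit that left out 1 library. Gstm2 measured 423, 326 and 361 CPM and then 824, 681 and 864 CPM (1.09, SE 0.14, adjusted p = 9.01e-05). Gstm1 measured 398, 355 and 376 CPM and then 689, 580 and 801 CPM (0.87, SE 0.10, adjusted p = 2.58e-05). Gstm6 rose by 1.76 (SE 0.20) and Gstm7 by 1.61 (SE 0.19). Their sequences are close, so fragments can be shared among them. Of 23 NRF2 and antioxidant genes 5 were higher (21.7%, against 5.12% of all genes tested) and none lower (median 0.18). Among the higher were the factor Nfe2l2 itself (0.40, SE 0.08, adjusted p = 0.00487) and Srxn1, which repairs peroxiredoxins (0.58, SE 0.12, adjusted p = 0.00328). Without treated number 2 or 4 or untreated number 3 or 4 there were 3.

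The amino acid response held 4 higher genes of 27 (14.8%, against 5.12% of all genes tested) and none lower (median 0.09). Sesn2, a leucine sensor that restrains mTORC1, rose from 26.9, 27.3 and 28.1 CPM to 40.9, 38.7 and 41.2 CPM (0.55, SE 0.09, adjusted p = 0.000935). Ddit4, another inhibitor of mTORC1, rose from 62.4, 62.6 and 67.7 CPM to 107, 123 and 86.0 CPM (0.71, SE 0.14, adjusted p = 0.00378). Aars, the alanyl-tRNA synthetase, rose from 168, 160 and 160 CPM to 199, 231 and 221 CPM (0.42, SE 0.07, adjusted p = 0.000578). The factor Atf4 itself did not pass (adjusted p = 0.679). Of the transporters of amino acids Slc43a2, a carrier of large neutral amino acids, rose from 11.7, 8.99 and 8.86 CPM to 22.1, 18.4 and 23.1 CPM (1.11, SE 0.14, adjusted p = 7.68e-05).

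Most oocyte genes had fold changes slightly below 0, and 1 of them passed the test. Of 32 oocyte genes none was higher and 1 lower, Khdc3 (median −0.16), whose call was lost without untreated number 2 or 3 or treated number 3 or 4. The lower share was 3.12%, against 3.3% of all genes tested. Without treated number 2 there were 3 lower oocyte genes, and with the library number added to the fit as a block there were 7. The summed level of the list was 10900, 10500 and 10400 CPM in the controls and 9850, 9520 and 9080 CPM with FSH24, without overlap. The untreated libraries numbered 1, 5 and 6 spanned 8640 to 10000 CPM, which covers the treated range. The oocyte growth factor gene Gdf9 measured 1100 to 1220 CPM in the controls and 978 to 1120 CPM in the treated libraries. The part of the oocyte share in the other changes was not tested. Of 9 surface epithelium markers tested 3 were higher (33.3%, against 5.12% of all genes tested) and none lower, with 1 higher without treated number 2 or untreated number 3 or 4. The whole list summed to 41.9 to 58.1 CPM in the controls and 84.6 to 99.2 CPM with FSH24. Most of that was the keratin Krt8, also an epithelial gene outside the surface epithelium, which rose from 42.7, 28.6 and 38.9 CPM to 74.8, 66.9 and 65.9 CPM (0.91, SE 0.12, adjusted p = 0.00014). The defining markers Krt7 and Upk3b were at or under 0.55 CPM in all 6 libraries. Surface epithelium's part in the other changes was not tested.

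Rises were ranked among called genes without overlap, with a mean of at least 1 CPM in the higher group and without provisional symbols. The 14 largest fold rises by this rule, other than that of Igfbp5, were in genes of low level. Pnliprp1, a pancreatic lipase-related gene, rose from 0.140, 0.779 and 0.362 CPM to 3.75, 7.53 and 3.95 CPM (3.55, SE 0.76, adjusted p = 0.00808). Its neighbour Pnliprp2 had 1.13 to 1.14 CPM with FSH24 and at most 0.0468 CPM in the controls, where 2 of 3 libraries had none. Rhox8, a homeobox gene of somatic gonad cells, rose from 1.97, 1.51 and 1.72 CPM to 8.46, 9.56 and 7.85 CPM (2.31, SE 0.37, adjusted p = 0.000608). Ifitm1, an interferon-induced membrane protein, rose from 2.95, 3.21 and 2.67 CPM to 11.9, 14.7 and 16.3 CPM (2.28, SE 0.22, adjusted p = 5.43e-06). Others of the 14 largest rises named by rule were Crybb1, Gcnt3, H2bc9, Pnlip, Spink4, Rec8 and Arg1, with changes of 2.19 to 2.99. The call of Arg1 was lost without any 1 library other than untreated number 2.

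Among the largest falls, Slc38a3, a glutamine transporter, went from 20.9, 16.2 and 15.5 CPM to 3.18, 5.45 and 3.90 CPM (−2.07, SE 0.44, adjusted p = 0.00887, lost without treated number 2). Cnnm1, of a family of magnesium transport proteins, fell from 27.8, 24.7 and 29.1 CPM to 5.51, 8.72 and 6.49 CPM (−1.98, SE 0.16, adjusted p = 5.6e-07). Sgpp2, a phosphatase of sphingosine 1-phosphate, fell from 21.7, 22.1 and 21.3 CPM to 6.70, 4.06 and 6.21 CPM (−1.94, SE 0.16, adjusted p = 5.6e-07). Kcnq5, a potassium channel subunit, fell by 1.82 on the log2 scale (SE 0.21, adjusted p = 6.27e-05). Abundant genes that fell include Cables1, a CDK-binding protein, from 442, 352 and 431 CPM to 181, 164 and 146 CPM (−1.32, SE 0.10, adjusted p = 3.02e-07). Kazald1, a secreted protein with similarity to IGF-binding proteins, fell from 432, 447 and 509 CPM to 181, 227 and 229 CPM (−1.12, SE 0.19, adjusted p = 0.00208). Prss23os, at 2.89 to 3.74 CPM in the controls and 0 to 1.08 CPM with FSH24, is antisense to Prss23, which fell too (−1.09, adjusted p = 0.00687), and whether the counting used strand is not given in the sources used here, so its fall is uncertain.

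**Figure D5:**
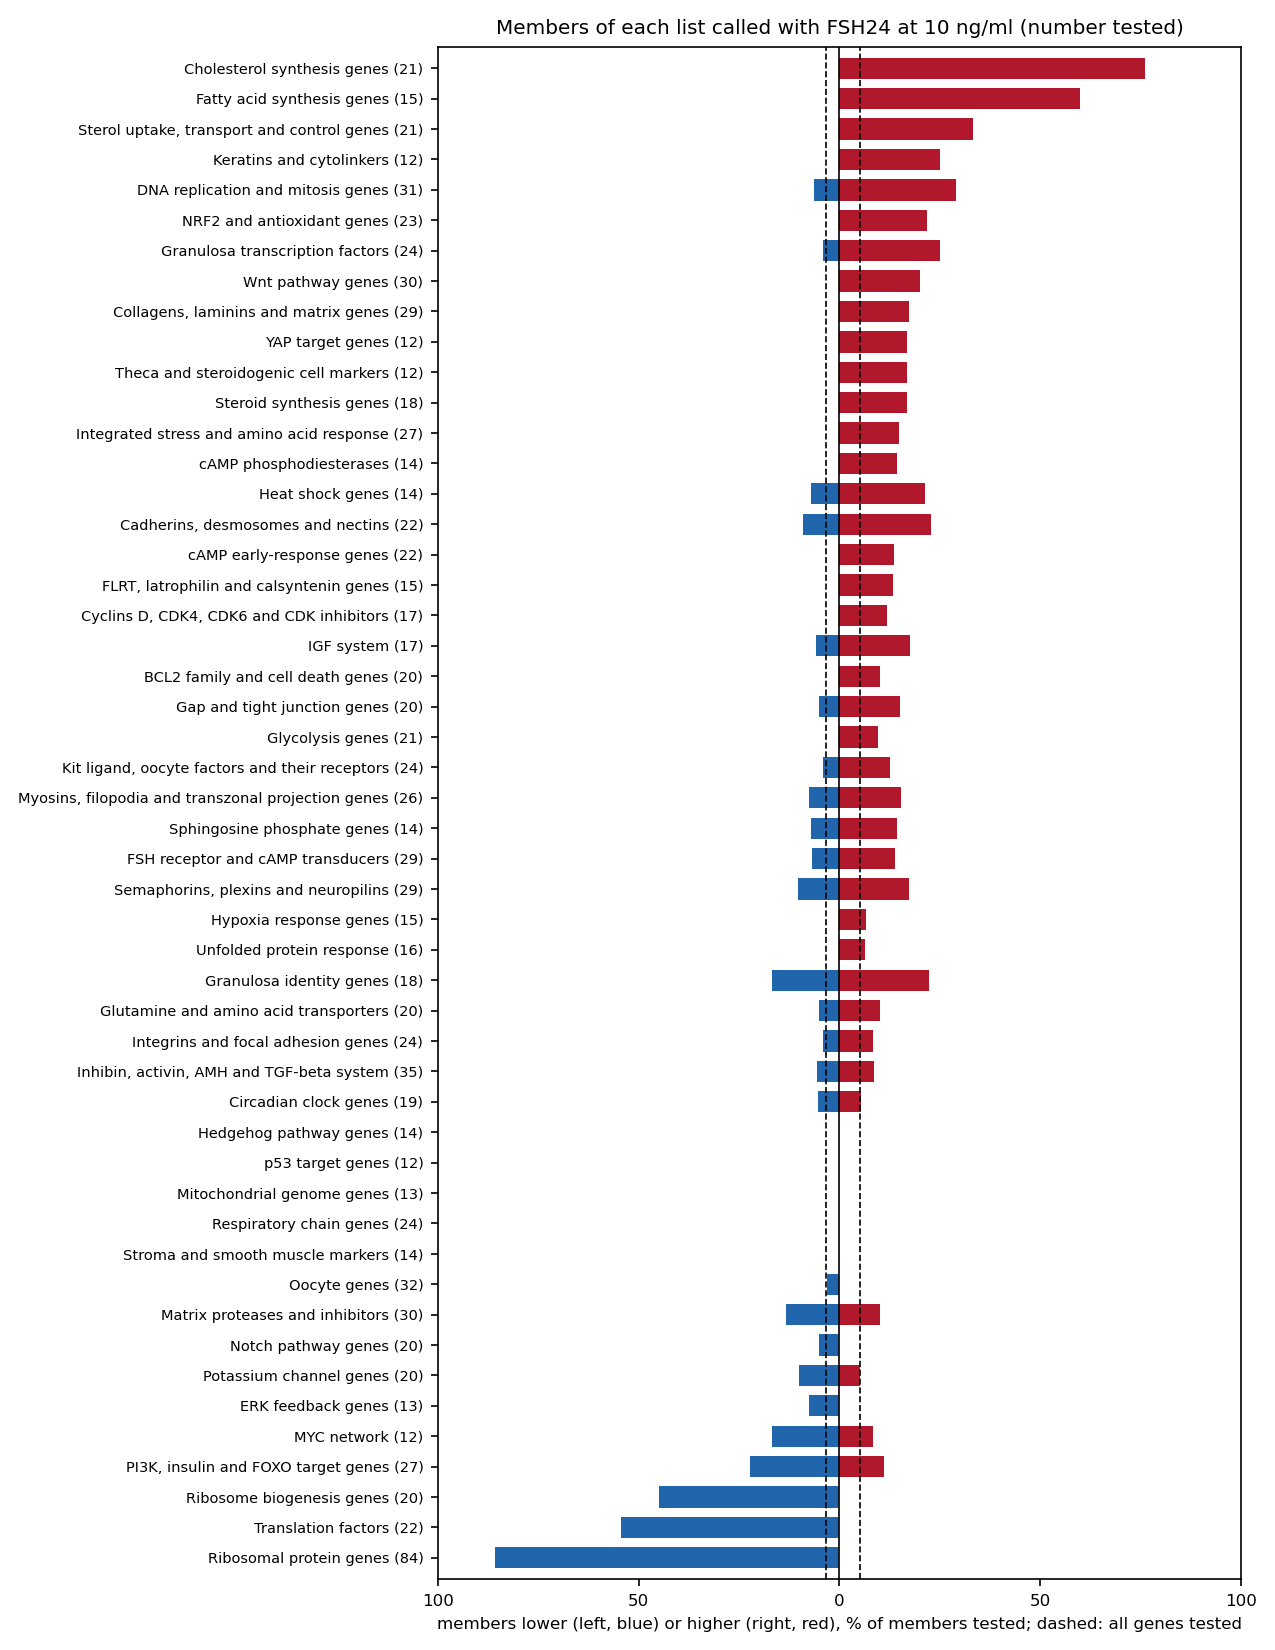
Share of tested members called lower (blue, to the left) or higher (red, to the right) with 10 ng/ml FSH24, in percent, for each list with at least 10 tested members (their number in brackets); dashed lines mark 3.3% and 5.12%, the shares of all genes tested. Cholesterol synthesis has the largest red bar (76.2%) and ribosomal protein genes the largest blue bar (85.7%).

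At 1 ng/ml, FSH24 gave no call. Its 3 libraries carry the numbers 1, 5 and 6 and were compared with the 3 untreated libraries of those numbers. With edgeR 0 of 18727 genes passed (0%), with 1119 at an unadjusted p under 0.05. Dose and library number go together, since each number was used at 1 dose. The difference between the 2 doses' effects was tested directly, each against its own controls, and 226 genes had a higher effect at 10 ng/ml (1.21%) and 232 a lower one (1.24%). With only the 12 libraries compared there were 110 higher and 207 lower. The 458 calls fell to 300, 236, 218 and 282 without untreated number 2, 4, 5 or 6, and to 302, 217 and 291 without treated number 2, 4 or 5. Without treated number 4 they were 77 higher and 140 lower. For Kitl the effect was 1.53 with the higher dose and 0.03 with the lower, and the difference of 1.50 (SE 0.11) had an adjusted p = 1.23e-06. In the ribosomal protein list 56 of 84 members had a lower effect at the higher dose, and in the cholesterol synthesis list 7 of 21 had a higher one. The summed level of ribosomal protein genes was 28100, 24200 and 24900 CPM in untreated numbers 1, 5 and 6 and 28000, 29800 and 26800 CPM with 1 ng/ml.

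FSH24 and FSH21 at 10 ng/ml, with the same numbers, were not told apart by edgeR. None of 18727 genes passed (0%), and 410 (2.19%) had an unadjusted p under 0.05. This fit did not use the library number. With the number as a block none passed either, and 716 genes had an unadjusted p under 0.05. DESeq2 called 5 genes, Kif5b, Pex5l, Usp6nl, Gm9913 and Gm45234, chosen here after their values were seen. The last 2 of them had no count in 4 of the 6 libraries. Kif5b, a kinesin heavy chain, measured 263, 268 and 251.3 CPM with FSH24 and 297, 312 and 318 CPM with FSH21 (−0.25, SE 0.05, adjusted p = 0.0161 by DESeq2). Pex5l, a peroxisomal import receptor-like gene, measured 1.24, 1.98 and 0.517 CPM with FSH24 and 3.68, 4.54 and 5.70 CPM with FSH21. Both forms share the same 3 untreated libraries. Against them the effect on Kitl was 1.53 with FSH24 and 1.64 with FSH21, a difference of −0.11 (95% confidence interval −0.28 to 0.05). For Pik3r1 the effects were −0.96 and −1.30, a difference of 0.34 (0.14 to 0.53), with an adjusted p = 1.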

How the data were processed

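RNA from cultured mouse follicles was sequenced in 18 libraries, each on 4 lanes. Reads were handled with bcl2fastq, FastQC and STAR 2.7 on mm10, per the submitters' processing notes. The column names of the deposited table mark its values as RSEM expected counts per gene made by the authors, and 33.9% of non-zero values were not whole. The annotation, the RSEM version and the strand setting are not given in the sources used here. Values were rounded to whole counts. Symbols and positions came from GENCODE M21 (GRCm38), in which 52073 of 56691 identifiers were found. Genes with low counts were left out with filterByExpr (minimum count 10), which kept 18727.

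All 18 libraries in 6 groups were fitted together with edgeR 4.0.16 in R 4.3.3 (TMM scaling, robust quasi-likelihood fit) and p-values were adjusted by Benjamini-Hochberg over all genes tested. CPM was computed here from TMM-scaled totals. The test was tried on simulated counts with a fixed coefficient of variation of 0.135, with changes made only in genes of higher counts. It recovered 28 of 60 changes of 1.5-fold (46.7%), 80 of 80 of 2-fold and 60 of 60 of 4-fold, with 6 false calls. Genes were named by rule from called genes with at least 1 CPM and no overlap between groups: the 14 largest rises and falls, the 10 largest in CPM, members of 58 gene lists, and up to 10 a direction in the test of dose; uncalled or overlapping list members were named for contrast. Genes with provisional symbols such as Gm or Rik, pseudogene symbols or shared symbols were left out of the ranked naming. The members and lists were chosen with earlier results of these data known. A few list members are counted but not reported here by name. Promoter windows are RefSeq's. Depth was 17.5 to 22.5 M counts a library. Alternatives tried were another scaling, no scaling, no filter, fewer or more libraries, DESeq2 1.42.0, the library number as a block and each library left out.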

Additional observations from a re-analysis of the deposited data

Results flagged for a closer look

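The effect of FSH24 at 10 ng/ml and its effect at 1 ng/ml, each against untreated libraries of its own numbers, differed by edgeR's test of the difference itself for genes named here. Dose and library number go together and cannot be told apart. The values are log2 differences, the effect at 10 ng/ml minus that at 1 ng/ml. Higher effects at 10 ng/ml were found for Kitl (1.50), Cbfa2t3 (1.20), Itga6 (1.23), Kif5b (0.64), Ccnjl (1.44), Smad3 (0.67), Myo7a (1.96), Enc1 (0.70) and Dsc2 (1.39), which are among the genes with the smallest adjusted p in that direction. Lower effects with the smallest adjusted p were those of Ank3 (−1.08), Cnnm1 (−1.95), Cables1 (−1.25), Spsb1 (−0.98), Me3 (−1.07), Sgpp2 (−1.63), Rassf2 (−0.87), Unc119 (−0.75), Rps20 (−0.82) and Grb14 (−1.13).

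Among the genes with the largest fold at 10 ng/ml the difference passed for H2bc9 (3.08), Ifitm1 (1.88), Rec8 (2.49), Sema3g (−2.15) and Kcnq5 (−1.51). That of H2bc9 had an SE of 0.77 (adjusted p = 0.0405 by edgeR), and its control sets differed at a low level. H2bc9 measured 0.47, 0.05 and 0.09 CPM in untreated numbers 2, 3 and 4. In untreated numbers 1, 5 and 6 it measured 0.62, 0.56 and 0.59 CPM, and with 10 ng/ml 1.66, 0.94 and 1.13 CPM. Among those with the largest change in CPM it passed for Thbs1 (0.63), Pcsk6 (0.75), Gstm2 (0.89), Rnf213 (0.99), Greb1 (1.16), Gstm1 (0.74), Eef1a1 (−0.50), Pik3r1 (−0.84), Rplp0 (−0.86) and Tpt1 (−0.56).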

How the results depend on the processing

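Of 249 called genes followed through every setting, 144 kept their direction and call in all of them, 105 lost the call in at least 1 (100 of them in a fit without 1 library), and none changed direction. Calls between FSH24 at 10 ng/ml and untreated follicles numbered 1130 to 2282 under the other scalings, filter, library sets and DESeq2, against 1577, and 982 to 1439 with 1 library left out. Without untreated number 3 the share of higher calls was 51%, against 60.8%. The difference between doses was called for 839 genes by DESeq2, against 458, and for 217 to 517 with 1 library left out. DESeq2 called 5 genes between FSH24 and FSH21, and leaving out 1 library gave 0 to 1 there (Gm9913, without FSH21 number 3). The cause of these shifts was not tested. For genes not called, leaving out 1 library gave for Inha, log2 fold change, −0.20 to 0.0057, and for Amh, log2 fold change, −0.04001 to 0.29. Each changed sign, Inha without untreated number 2 and Amh without untreated number 3.

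The labels do not say what a shared number means. Deviations of same-numbered libraries correlated at 0.223, 0.0889 and 0.077 between FSH24 at 10 ng/ml and its controls. Between FSH24 and FSH21 at 10 ng/ml they correlated at 0.235, 0.156 and 0.0719. Between FSH24 at 1 ng/ml and its controls the values were 0.126, 0.148 and 0.0496. In each comparison every FSH24 library correlated best with its own number, a hint from the data only. With the number as a replicate block, 2547 genes were called (1502 higher and 1045 lower), 1180 for the difference between doses (677 and 503) and 0 between FSH24 and FSH21. With it 7 oocyte genes were lower, against 1, among them Zp3 (adjusted p = 0.0176). Pde4b (adjusted p = 0.0221) and Ccnd2 (adjusted p = 0.0442) also passed. Of genes under 1 CPM 1.09% were called, and the effect of depth on calls was not tested.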
